A study of Homo sapiens with 5 samples.

Results

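The enzymes that oxidise and conjugate drugs, pollutants, bile acids and steroids were examined as 4 gene families. The members were the RefSeq protein-coding genes on GRCh38 whose symbols start with CYP and a digit, leaving out the sterol demethylase CYP51A1, with UGT and a digit, with SULT, or with GSTA, GSTK, GSTM, GSTO, GSTP, GSTT or GSTZ. The rule found 108 of 20037 protein-coding genes, of which 107 of 19866 carried chromosome coordinates and could be set against the peaks. The families held 55 CYP, 22 UGT, 13 SULT and 17 GST genes with coordinates. GSTT1 is listed with the coordinates of another scaffold and was left out. A gene was given a gene-end peak where at least 1 bp of the peak fell within 1 kb of either end of the gene. The rule uses gene names alone and no measured value, but it was chosen with earlier results of these data known.

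The data were CUT&Tag peak lists of HepG2, a human hepatoma line. CUT&Tag uses an antibody to bring a transposase to chromatin, which then tags the DNA around the antibody. There were 5 libraries, 1 for each of 5 groups: Flag-tagged ENL wild type, Flag-tagged ENL carrying the Y78A substitution in the acyl-lysine pocket, and histone H3 acetylated (H3K9ac), β-hydroxybutyrylated (H3K9bhb) or crotonylated (H3K9cr) at lysine 9. ENL, encoded by MLLT1, belongs to transcription elongation complexes and reads acylated lysines with its YEATS domain. Per the series' design text, Flag and H3K9bhb antibodies were used on cells that stably express Flag-ENL. The sources used here do not give the cells behind H3K9ac and H3K9cr, the promoter that drives Flag-ENL, the number of clones or any drug treatment. With 1 library per group no comparison has a replicate check, and every interval below is a 95% Wilson interval of counting error only. Genes are not replicates, and members of a cluster can share a peak.

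Cytochrome P450 enzymes insert oxygen into a substrate, and the first 3 CYP families in the liver act mainly on foreign compounds while later families act mainly on fatty acids, steroids, bile acids, retinoids and vitamin D. UDP-glucuronosyltransferases, sulfotransferases and glutathione S-transferases then attach glucuronic acid, sulfate or glutathione, which makes the product easier to excrete. Many of these genes lie in tandem clusters and are switched on in hepatocytes by nuclear receptors, by the dioxin receptor AHR or by the stress factor NRF2. Lysine acylation of histone H3 marks active promoters and enhancers.

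The lists held 11394 wild type ENL peaks, 5422 Y78A peaks, 31493 H3K9ac peaks, 9176 H3K9bhb peaks and 3852 H3K9cr peaks on standard chromosomes. They reach down to different thresholds, from a smallest −log10 q of 1.31 in H3K9ac to 2.05 in wild type ENL, so a list with no peak at a gene means only that none was called there. Read totals are unknown. The number of fragments at a peak's summit was recovered from the deposited fold and p, and its median was 21 to 33 per list. As a check of the label, 11 of 15 hepatocyte marker genes (73.3%) had a gene-end H3K9ac peak, against 56.8% of all protein-coding genes. So did 1 of 3 hepatoma markers (GPC3) and 3 of 15 markers of other cell types (20%). With a mark this common and so few genes, the check is weak. ALB, TTR, SERPINA1, FGB, AFP and IGF2 had no gene-end peak in any list.

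Gene-end peaks were found at a smaller share of members than of protein-coding genes in general, in all 5 lists. The interval lay below the share of all genes in each list but H3K9cr. H3K9ac was present at 33 of 107 members (30.8%, interval 22.9 to 40.1), against 56.8% of all protein-coding genes. Wild type ENL was present at 13 members (12.1%, interval 7.24 to 19.7), against 28.8% of all genes. H3K9bhb was at 10 members (9.35%, interval 5.16 to 16.4) and at 23.9% of all genes. Y78A was at 6 members (5.61%, interval 2.60 to 11.7), against 14.8%. H3K9cr was at 2 members (1.87%, interval 0.514 to 6.56), against 4.5%, a share that the interval contains. Each family was also set against all genes, and the families were not tested against one another. For H3K9ac, the intervals of the SULT genes (23.2 to 70.9) and GST genes (26.2 to 69.0) contain the 56.8% of all genes. Those of the CYP and UGT genes lie below it. No member had a peak of another list without H3K9ac, so 33 members had a gene-end peak of any list, against 57.6% of all genes, and 74 members (69.2%) had none, against 42.4%.

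**Figure D1:**
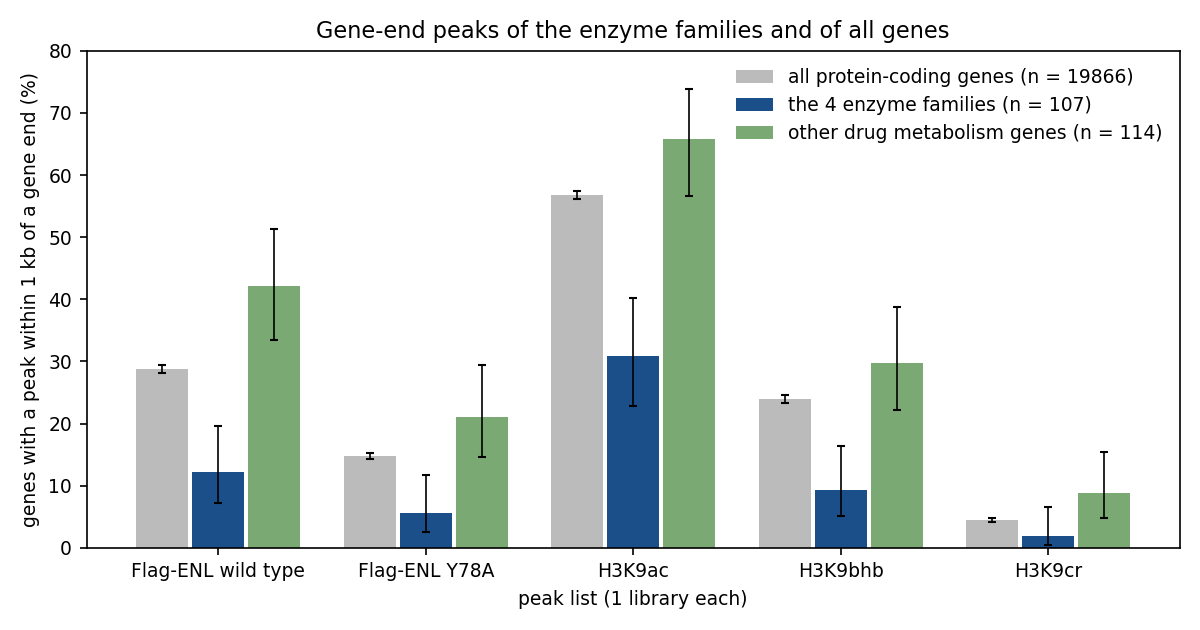
Bars give the share (%) of genes with a peak within 1 kb of a gene end in each of the 5 lists (1 library each), for all 19866 protein-coding genes (grey), the 107 members of the 4 enzyme families (blue) and 114 other genes of drug metabolism (green), with 95% Wilson intervals. The blue bars are the lowest of the 3 in every list, from 30.8% for H3K9ac to 1.87% for H3K9cr.

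Among genes with H3K9ac, the members lay closer to other genes. Among the 33 members with H3K9ac, wild type ENL was at 13 (39.4%, interval 24.7 to 56.3), against 49.7% of all genes with H3K9ac. H3K9bhb was at 10 of the 33 (30.3%, interval 17.4 to 47.3), against 41.6%. Y78A was at 6 (18.2%, interval 8.61 to 34.4), against 25.6%, and H3K9cr at 2 (6.06%, interval 1.68 to 19.6), against 7.76%. Each of these intervals contains the share of all acetylated genes. The wild type ENL peaks at members had a median −log10 p at percentile 35.5 of their list and 20 summit fragments. Those at all gene ends lay at percentile 54.7 with 24 fragments. By fold the members' wild type peaks were not lower, with a median of 5.42 against 5.12 at all gene ends.

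**Figure D2:**
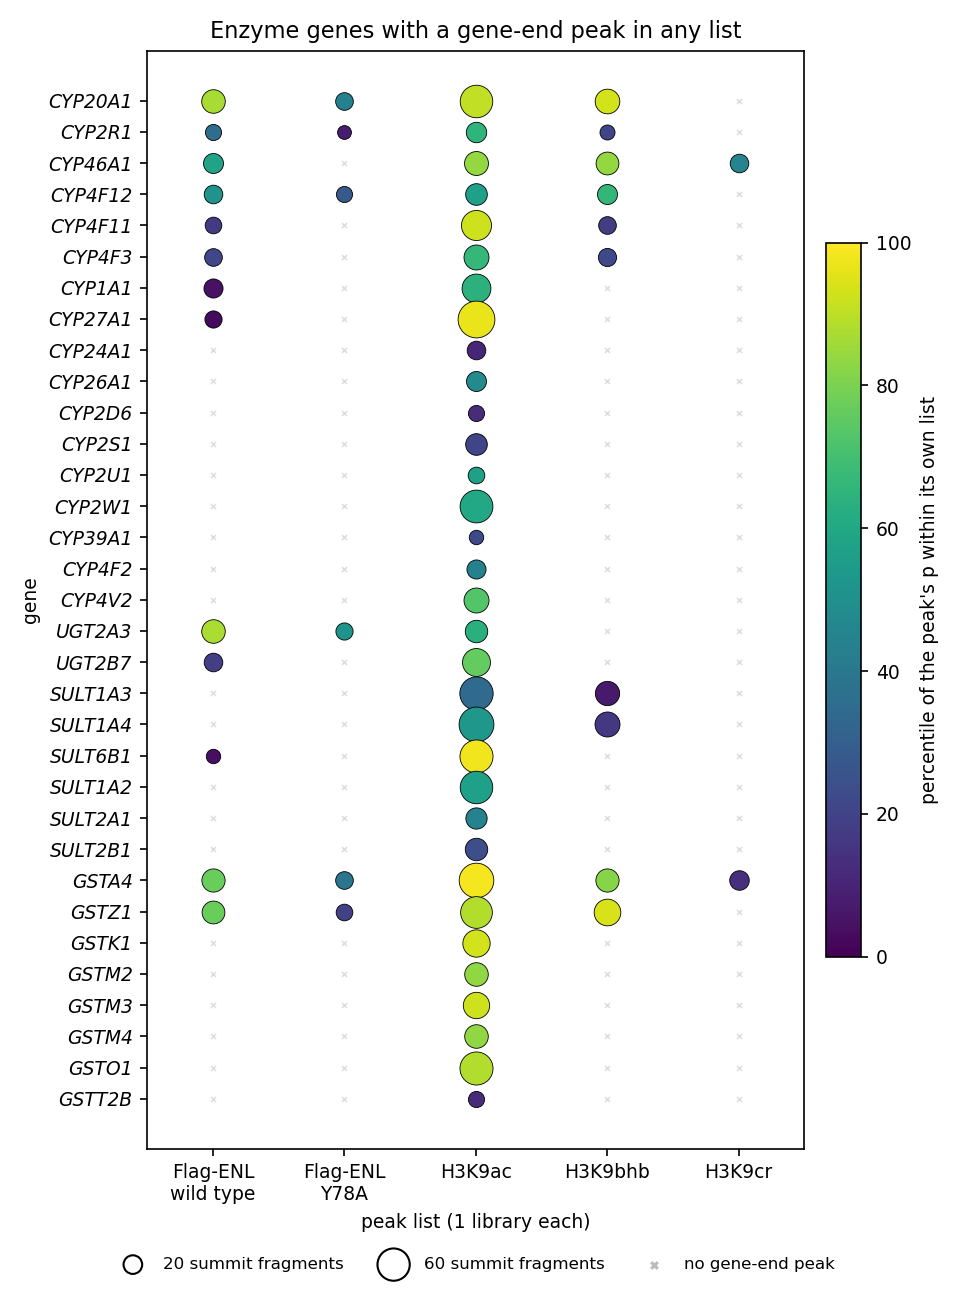
Each row is 1 of the 33 enzyme genes with a gene-end peak, each column a peak list (1 library). Circle area is proportional to the recovered summit fragments of the strongest peak by fold, colour is the percentile of that peak's p within its own list, and crosses mark no peak. CYP20A1, UGT2A3, GSTA4 and GSTZ1 have the wild type ENL peaks with the highest percentiles, between 77.1 and 87.4, and every row has an H3K9ac circle.

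The 250 bases before the outermost RefSeq start of 6 members are shown, since the members' promoters differ widely in CpG pairs. The set holds the 5 members with the highest wild type ENL fold among peaks that reach the promoter window, and GSTM3, which had the highest gene-end H3K9ac fold among members without a gene-end ENL peak. The sequences are RefSeq GRCh38.p14, 5′ to 3′ on the gene's strand, and capitals mark CpG pairs. They come from chr4:68951805-68952054 (minus strand, UGT2A3), chr2:203238768-203239017 (plus, CYP20A1), chr14:77320786-77321035 (plus, GSTZ1), chr6:52995285-52995534 (minus, GSTA4), chr11:14892444-14892693 (minus, CYP2R1) and chr1:109741039-109741288 (minus, GSTM3).
UGT2A3: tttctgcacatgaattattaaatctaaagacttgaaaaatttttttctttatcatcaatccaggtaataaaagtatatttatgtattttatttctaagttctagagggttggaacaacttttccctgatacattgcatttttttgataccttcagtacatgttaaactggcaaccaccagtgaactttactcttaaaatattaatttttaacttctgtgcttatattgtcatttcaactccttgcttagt
CYP20A1: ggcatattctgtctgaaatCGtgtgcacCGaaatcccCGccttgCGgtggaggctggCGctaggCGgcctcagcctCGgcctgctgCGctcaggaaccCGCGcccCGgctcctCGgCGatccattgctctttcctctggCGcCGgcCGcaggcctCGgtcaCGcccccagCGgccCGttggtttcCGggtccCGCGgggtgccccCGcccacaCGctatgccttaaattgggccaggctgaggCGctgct
GSTZ1: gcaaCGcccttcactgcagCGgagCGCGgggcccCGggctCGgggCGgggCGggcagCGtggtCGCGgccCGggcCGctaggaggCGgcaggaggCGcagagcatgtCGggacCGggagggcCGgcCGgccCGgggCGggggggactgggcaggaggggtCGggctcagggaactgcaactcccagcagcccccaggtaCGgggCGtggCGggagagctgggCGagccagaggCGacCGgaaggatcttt
GSTA4: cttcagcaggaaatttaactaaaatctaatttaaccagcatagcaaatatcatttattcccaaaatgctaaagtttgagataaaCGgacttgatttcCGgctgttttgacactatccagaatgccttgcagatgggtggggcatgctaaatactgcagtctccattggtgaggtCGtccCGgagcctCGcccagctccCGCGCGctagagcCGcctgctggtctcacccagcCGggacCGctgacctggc
CYP2R1: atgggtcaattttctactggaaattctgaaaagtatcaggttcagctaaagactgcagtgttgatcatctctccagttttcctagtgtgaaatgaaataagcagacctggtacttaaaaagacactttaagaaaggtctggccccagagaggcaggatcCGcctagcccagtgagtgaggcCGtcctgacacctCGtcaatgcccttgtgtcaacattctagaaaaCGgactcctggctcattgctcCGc
GSTM3: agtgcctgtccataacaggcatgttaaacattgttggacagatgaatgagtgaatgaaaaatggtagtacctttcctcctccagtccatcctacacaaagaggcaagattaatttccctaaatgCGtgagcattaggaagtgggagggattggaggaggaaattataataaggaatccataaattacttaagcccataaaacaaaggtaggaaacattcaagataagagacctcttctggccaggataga
The stretches of CYP20A1 and GSTZ1 hold 26 and 28 CpG pairs, those of GSTA4 and CYP2R1 hold 11 and 5, and that of GSTM3 holds 1. The GSTM3 peak lies inside the gene and does not reach this stretch. The wild type peak of CYP2R1 (chr11:14891773-14892464) meets only the edge of its stretch, and the Y78A and H3K9bhb peaks do not reach it. The promoter windows of the other CYP2R1 starts, which the wild type peak also overlaps, hold 28 and 16 CpG pairs. That of the printed start holds 10. These windows also take in bases after the start, which the printed stretches leave out. UGT2A3, whose wild type peak had the highest fold of all members, has no CpG pair in its printed 250 bases and a GC content of 28.0%.

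Among the CYP genes, 17 of 55 had H3K9ac, 8 wild type ENL, 6 H3K9bhb, 3 Y78A and 1 H3K9cr. CYP20A1, a P450 without an established substrate, had the strongest ENL peak of the family. Its wild type peak (chr2:203238864-203239241, hg38) was 7.34-fold by the authors' value with 32 summit fragments, the Y78A peak 5.40-fold with 18, the H3K9bhb peak 6.95-fold with 35 and the H3K9ac peak 3.96-fold with 61, and no H3K9cr peak was called. All 4 summits lay within 107 bp of a RefSeq start. CYP2R1, the vitamin D 25-hydroxylase, had the same 4 lists with fewer summit fragments, 15 for wild type, 11 for Y78A, 13 for H3K9bhb and 24 for H3K9ac. Its Y78A peak stood at percentile 8.06 of its list by p. Both genes act on endogenous compounds or on none that is known, and neither is a classic drug-metabolising P450.

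The CYP4F genes, which hydroxylate long-chain fatty acids, leukotrienes and vitamin K, made up the largest group of occupied P450 genes. CYP4F12 had wild type ENL at 5.48-fold (20 fragments), Y78A at 5.19-fold (15), H3K9bhb at 5.34-fold (23) and H3K9ac at 3.74-fold (27). CYP4F11 and CYP4F3 had wild type ENL at 4.39-fold and 4.31-fold and H3K9bhb at 4.04-fold and 4.06-fold, with H3K9ac and without Y78A. CYP4F2, a vitamin K and leukotriene hydroxylase, had H3K9ac alone at 3.72-fold. CYP4F8 and CYP4F22 had no gene-end peak. CYP4V2, mutated in a corneal and retinal dystrophy, had H3K9ac alone at 4.03-fold, whereas CYP4A11, CYP4A22, CYP4B1, CYP4X1 and CYP4Z1 lay in a cluster of 350.7 kb on chromosome 1 with no peak of any list.

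CYP46A1, the cholesterol 24-hydroxylase, carried wild type ENL and all 3 acyl marks, and Y78A was not called there. The summits held 23 wild type fragments (5.42-fold), 30 of H3K9bhb (5.80-fold), 33 of H3K9ac (5.51-fold) and 20 of H3K9cr (4.06-fold). CYP27A1, the sterol 27-hydroxylase of bile acid synthesis, had an H3K9ac peak of 78 fragments, at percentile 96.7 of its list, beside a wild type ENL peak of 17 fragments at percentile 2.45. CYP1A1, the AHR-inducible P450 that oxidises polycyclic hydrocarbons, likewise had H3K9ac (2.92-fold, 48 fragments) and a weak wild type ENL peak (3.22-fold, 21 fragments, percentile 4.61) with its summit at −524 bp from the start. Neither had Y78A, H3K9bhb or H3K9cr.

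The remaining CYP genes with a gene-end peak had H3K9ac alone, namely CYP2U1 (5.29-fold), CYP39A1 (4.05-fold), CYP26A1, CYP24A1, CYP2D6, CYP2S1 and CYP2W1, with CYP4F2 and CYP4V2 above. CYP2D6, which clears many antidepressants and opioids, had 15 H3K9ac fragments at percentile 12.3. The end of CYP39A1 lies within 1 kb of SLC25A27, and that of CYP2S1 within 1 kb of LOC124904790. CYP3A4, CYP2C8, CYP2C19, CYP2A6 and CYP1A2 had no peak of any list within 10 kb, nor did the bile acid genes CYP7A1 and CYP8B1. CYP2E1, which oxidises ethanol, had no gene-end peak, and its nearest H3K9ac peak lay 6855 bp away.

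UGT genes had the lowest H3K9ac share of the 4 families, with H3K9ac and wild type ENL at the same 2 of 22 genes (9.09%, interval 2.53 to 27.8), Y78A at 1 and H3K9bhb and H3K9cr at none (0 of 22, interval 0 to 14.9). UGT2A3, a glucuronosyltransferase active on bile acids, had a wild type peak at chr4:68951228-68951980 of 7.45-fold and 32 fragments, a Y78A peak of 6.09-fold and 17 fragments, and an H3K9ac peak of 3.97-fold and 29 fragments. It was the only member with Y78A and no H3K9bhb peak, and the only one of the 13 wild type members whose H3K9ac summit held fewer fragments than its ENL summit. UGT2B7, which glucuronidates morphine and many other drugs, had wild type ENL at 3.91-fold (20 fragments) and H3K9ac at 3.67-fold (45). Those peaks lie at the outer end of the gene model, about 45 kb before the start that the promoter table gives for UGT2B7. UGT2B4, UGT2B10, UGT2B11, UGT2B17 and UGT2B28 had no peak of any list within 10 kb.

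Of the 13 SULT genes, 6 had H3K9ac, 2 H3K9bhb and 1 wild type ENL. SULT6B1 had the ENL peak (4.19-fold, 12 fragments, percentile 3.57 of its list) with a strong H3K9ac peak (5.34-fold, 63 fragments). That end also lies within 1 kb of CEBPZOS and about 8 kb from the RefSeq start of SULT6B1. SULT1A3 and SULT1A4, copies of the dopamine sulfotransferase gene on chromosome 16, each had 2 H3K9ac peaks and 1 H3K9bhb peak. The H3K9ac folds were 1.81 to 2.18, over a local background of 31.3 to 34.8 fragments, and the H3K9bhb folds were 2.58 and 2.71. Reads of such near-identical copies cannot be told apart here. SULT2A1, the hepatic sulfotransferase for bile acids and DHEA, had H3K9ac alone at 3.31-fold, SULT2B1 at 2.64-fold and SULT1A2 at 2.38-fold. SULT1A2 has an end within 1 kb of SGF29, and SULT2B1 one within 1 kb of FAM83E. Neither neighbour has an end within 1 kb of these H3K9ac peaks. SULT1B1, SULT1C2, SULT1C3, SULT1C4 and SULT4A1 had no peak within 10 kb in any list.

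Among the GST genes 8 of 17 had H3K9ac (47.1%, interval 26.2 to 69.0), a share near that of the SULT genes, and 2 had both kinds of ENL. GSTA4, which detoxifies the lipid peroxidation product 4-hydroxynonenal, was the only member with a peak in all 5 lists. Its summits held 31 wild type fragments (5.83-fold), 18 Y78A (5.16-fold), 69 H3K9ac (5.22-fold), 31 H3K9bhb (5.38-fold) and 22 H3K9cr (3.10-fold). GSTZ1, an isomerase of tyrosine breakdown, had wild type ENL at 6.01-fold (30 fragments), Y78A at 4.62-fold (16), H3K9bhb at 6.27-fold (41) and H3K9ac at 3.93-fold (58). POMT2 has an end within 1 kb of GSTZ1, so each of these peaks counts for both genes. GSTM3 at 6.05-fold, GSTK1 at 5.86-fold and GSTM2 at 5.63-fold had the 3 highest H3K9ac folds among the members' gene-end peaks, and none of the 3 had a gene-end peak of another list. GSTM2 and GSTM4 share the 5.63-fold peak, and GSTM4 has a second one at its start. GSTO1 and GSTT2B also had H3K9ac alone. GSTA1 and GSTA2, abundant in adult liver, and GSTP1, the form typical of other tissues, had no peak of any list within 10 kb.

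To see whether the substituted protein lay at the same genes, wild type and Y78A peaks were compared. Y78A had a peak at 6 of the 13 members with wild type ENL (46.2%, interval 23.2 to 70.9), against 49.8% of all genes with wild type ENL, and at no member without it. The 6 were CYP20A1, CYP2R1, CYP4F12, UGT2A3, GSTA4 and GSTZ1. Their wild type summits held 32, 15, 20, 32, 31 and 30 fragments and their Y78A summits 18, 11, 15, 17, 18 and 16, in that order. Y78A was lower at 6 of 6, with a median ratio of 0.572 (0.531 to 0.750). Among all genes with both peaks it was lower at 96.6%, with a median ratio of 0.656, while the most frequent background level of the Y78A list was 0.841 times that of the wild type list. The 7 wild type members where Y78A was not called were CYP1A1, CYP27A1, CYP46A1, CYP4F3, CYP4F11, SULT6B1 and UGT2B7. By p, the wild type peak of CYP46A1 stood at percentile 58.2 of its list and those of the other 6 between 2.45 and 21.4.

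The question of the study, whether ENL lies on H3K9bhb, was asked of the members too. H3K9bhb was at 8 of the 13 members with wild type ENL (61.5%, interval 35.5 to 82.3), against 71.3% of all genes with wild type ENL. Wild type ENL was at 8 of the 10 members with H3K9bhb (interval 49.0 to 94.3%), against 85.9%. The exceptions with H3K9bhb and no ENL were SULT1A3 and SULT1A4, near-identical copies whose reads cannot be told apart here. Their H3K9bhb peaks stood at percentiles 0.414 and 0.719 of the list by fold, and 6.87 and 16.2 by p. At all 8 members with both, the peaks overlapped, and the summits were a median of 40 bp apart. Overlap was the rule in general, at 3938 of 4084 protein-coding genes with both, with a median summit gap of 66 bp. Of the 6 members with Y78A, 5 had H3K9bhb, against 87.7% of all genes with Y78A. H3K9ac was at all 13 members with wild type ENL, against 98% of all genes with wild type ENL.

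Promoter sequence was then set beside the peaks, using RefSeq windows from 250 bases before to 50 bases after a start, which were given for 83 of the 107 members (101 windows, some genes having several starts). Members had few CpG pairs. The median was 4 per 300 bases in members, against 21 in the 22175 windows of all protein-coding genes, and 56 of 101 member windows (55.4%) held 5 or fewer, against 21.4%. GST windows had a median of 17, CYP 4.5, UGT 3 and SULT 1. Member windows under an H3K9ac peak had a median of 16 CpG pairs and those without had 3. In all genes the medians were 27 and 9.

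Members were therefore read beside windows of like CpG content. In the class of 0 to 5 CpG pairs, H3K9ac overlapped 8 of 56 member windows (14.3%, interval 7.42 to 25.7), against 6.63% of all windows, and wild type ENL 3 of 56 (5.36%, interval 1.84 to 14.6), against 1.73%. The ENL windows of this class were those of UGT2A3 and 2 starts of CYP4F11. In the class of 15 or more, H3K9ac overlapped 14 of 29 (48.3%, interval 31.4 to 65.6), against 68.9%, and wild type ENL 5 of 29 (17.2%, interval 7.60 to 34.5), against 36.5%. In the class of 6 to 14, H3K9ac overlapped 5 of 16 (31.25%), against 29.9%, and wild type ENL 2 of 16 (12.5%), against 9.15%. Members were thus below the rate of all windows in the CpG-rich class, near it in the middle class and above it in the CpG-poor class. The 8 CpG-poor H3K9ac windows include 2 starts of CYP4F11. They also include the near-identical copies SULT1A3 and SULT1A4, with peaks of 1.93-fold and 1.81-fold, so few separate loci carry the difference. Several windows can belong to 1 gene, so these intervals are too narrow. CpG-rich windows without H3K9ac included those of GSTP1, with 36 CpG pairs, GSTM1 and GSTM5, with 22 each, the retinoic acid hydroxylases CYP26A1, with 32 at a start whose H3K9ac peak lies further upstream, and CYP26C1, with 29, and the 3 starts of UGT8, the ceramide galactosyltransferase. DNA methylation was not measured in these libraries.

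**Figure D3:**
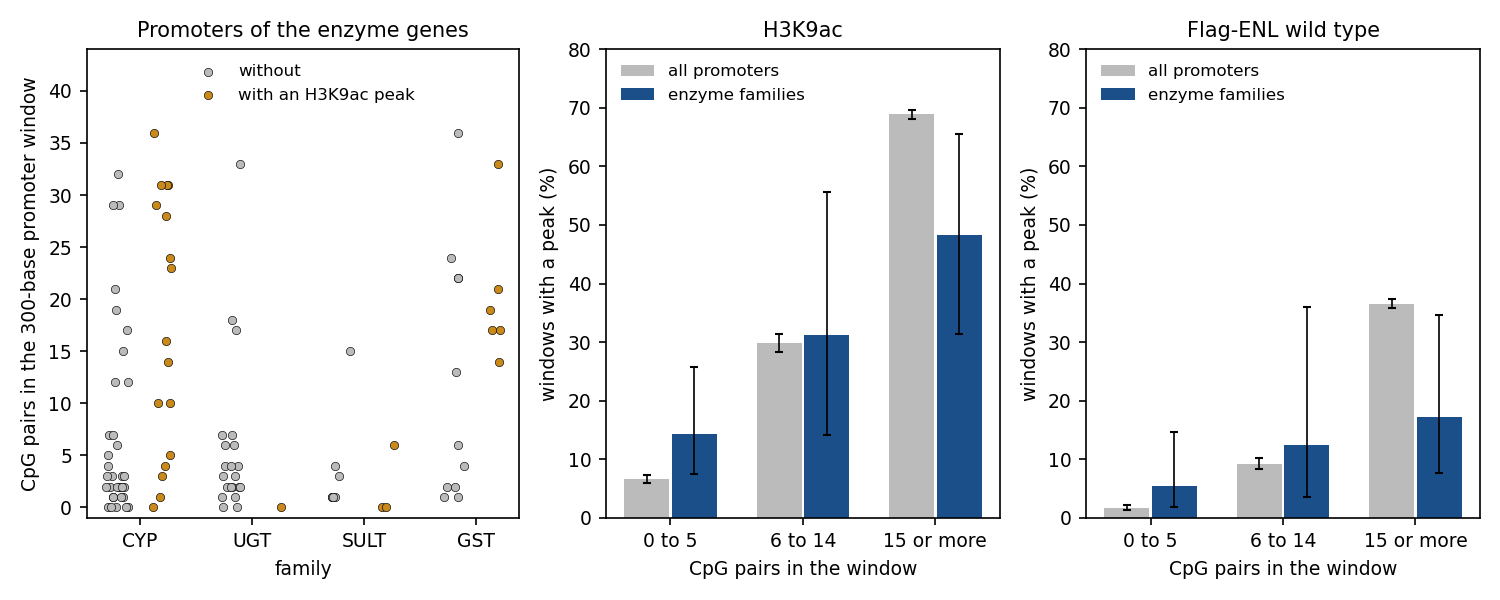
The left panel plots the CpG pairs in each 300-base promoter window of the members by family, with and without an overlapping H3K9ac peak (points are windows, spread sideways for sight). The other panels give the share (%) of windows overlapped by H3K9ac or wild type ENL in 3 classes of CpG number, for all protein-coding genes (grey) and the members (blue), with 95% Wilson intervals. In the class of 15 or more the blue bars are lower, 48.3% against 68.9% for H3K9ac.

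Fixed motifs were counted in the same windows on both strands, as a description of letters only. The TATA box TATAAA was in 31 of 101 member windows (30.7%) and in 9.47% of all windows. It was in 2 of 27 member windows with H3K9ac, those of CYP1A1 and GSTO1, and in 29 of 74 without. The AHR core GCGTG was in 26.7% of member windows and 43.0% of all windows, and the CYP1A1 window holds 1 match. The antioxidant element TGACNNNGC was in 14.9% of member windows and 13.8% of all windows, with a match 9 bases before the start of GSTA4. CCAAT was in 43.6% and 34.7%, and the stretches of CYP20A1, GSTA4 and GSTM3 printed above each hold 1 match on the opposite strand. The full HNF1 element was in 1 member window, that of UGT1A3, and in 2 of all 22175. The HNF4-type words TGACCTTTG and AGGTCAAAG were in no member window and in 0.347% and 0.244% of all windows.

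Peaks inside genes were counted next. Within 1 kb of the gene or anywhere in it, wild type ENL was at 31 members (36.1% of all genes), Y78A at 15 (19.2% of all genes), H3K9ac at 55 (65.2%), H3K9bhb at 23 (31.4%) and H3K9cr at 4 (9.37%). Peaks inside the gene with none at its ends were at a larger share of members than of all genes in 4 of the 5 lists. This count takes nested genes that share a peak as separate members. They were at 18 members for wild type ENL (16.8%, against 7.28% of all genes), 9 for Y78A (8.41%, against 4.49%), 22 for H3K9ac (20.6%, against 8.43%) and 13 for H3K9bhb (12.1%, against 7.43%). H3K9cr was the exception, with 2 members (1.87%, against 4.87%). Gene length was not matched in these shares. In the CYP family alone the shares were 1.82% for Y78A and 5.45% for H3K9bhb, both below all genes. They were 10.9% for wild type ENL and 16.4% for H3K9ac, both above. UGT genes made up 9 of the 18 for wild type ENL and 9 of the 22 for H3K9ac. They also made up 8 of the 9 for Y78A and 8 of the 13 for H3K9bhb. Those 8 are UGT1A genes that share the same few peaks, because the 9 genes of the UGT1A locus have their own first exons and share all later ones up to one common end. Over 155.7 kb it held 6 wild type ENL peaks, 2 Y78A, 4 H3K9ac and 2 H3K9bhb peaks, none of them within 1 kb of an end. The site with the highest wild type fold, at chr2:233736902-233737426, lies between the starts of UGT1A3 and UGT1A1, with 21 wild type fragments (6.78-fold), 15 of Y78A (5.19-fold) and 22 of H3K9ac (4.39-fold). The next, at chr2:233745497-233745775, had 24 wild type fragments (6.13-fold) and 17 of H3K9ac. The one nearest to UGT1A1, the bilirubin-conjugating form, at chr2:233756799-233757106, had 16 wild type fragments, 14 of Y78A and 21 of H3K9bhb, with no H3K9ac peak. As the genes are nested, these peaks cannot be assigned to one of them, and none lies within UGT1A1 itself.

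**Figure D4:**
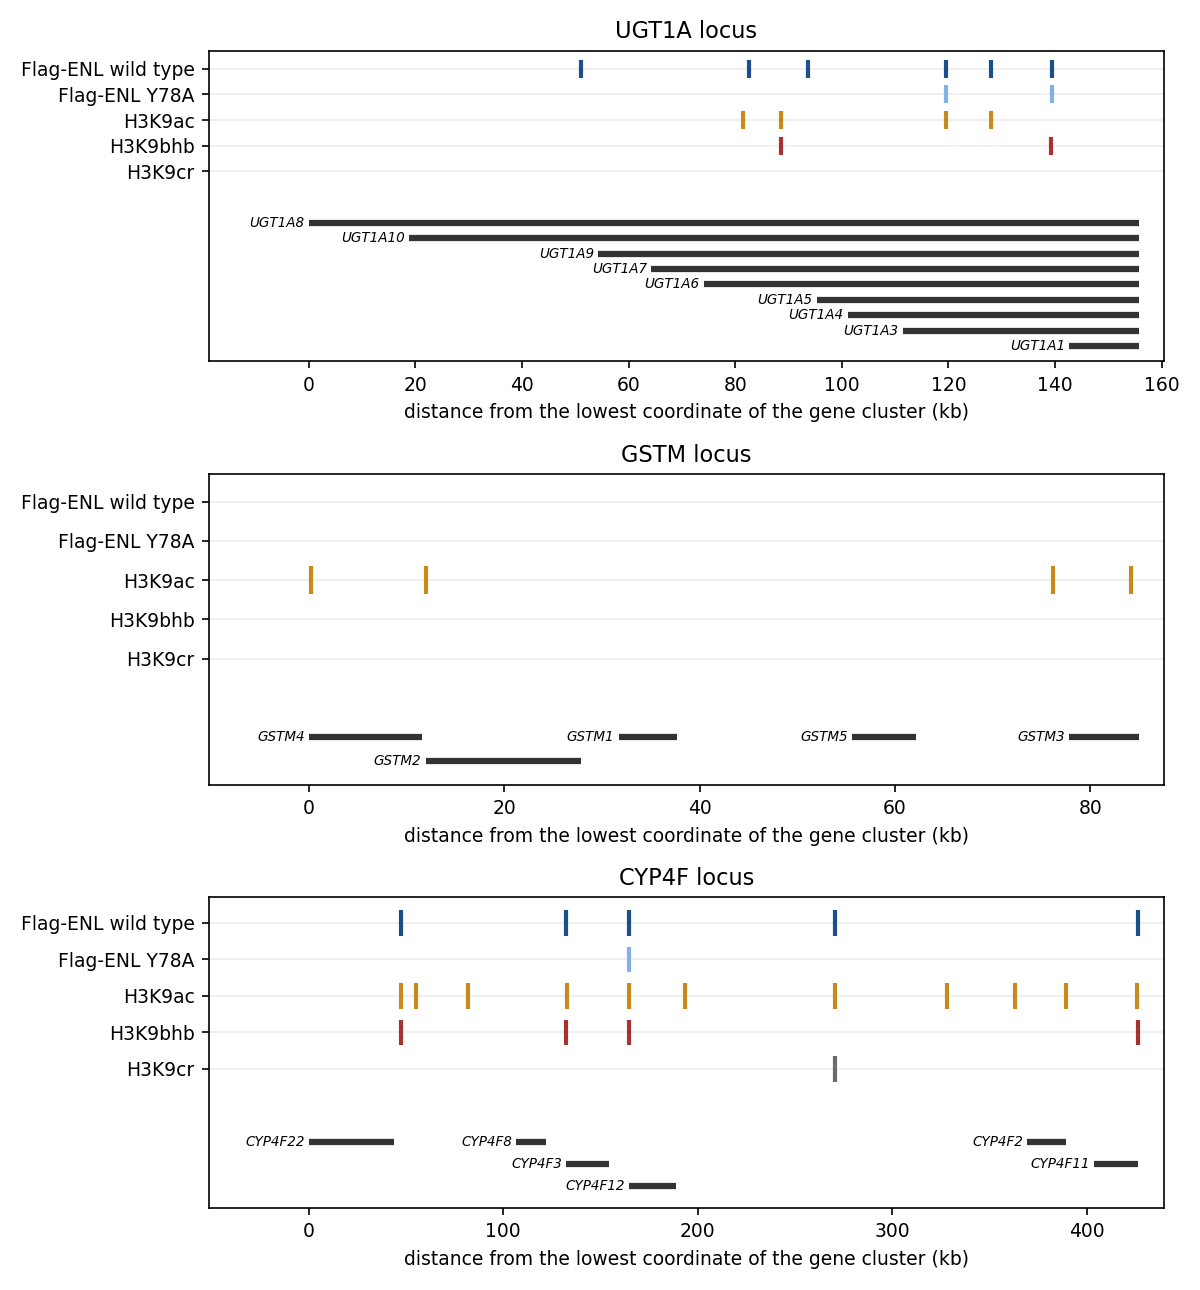
Vertical ticks mark the centres of peaks in the 5 lists along the UGT1A, GSTM and CYP4F loci, with member genes as bars below and distance in kb from the lowest coordinate of each gene cluster. UGT1A has 6 wild type ENL ticks inside the nested genes, GSTM has 4 H3K9ac ticks and no other, and CYP4F has 5 wild type ENL ticks, 3 of them at gene ends.

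Several single genes held internal peaks. CYP3A43 had a site with peaks in 4 lists (chr7:99860305-99860684), with 16 wild type, 13 Y78A, 16 H3K9ac and 14 H3K9bhb fragments, although its start had none. The readthrough gene CYP3A7-CYP3A51P held a site with 13 wild type, 25 H3K9ac and 18 H3K9cr fragments. CYP7B1, the oxysterol 7-hydroxylase, held a site with wild type ENL (5.24-fold, 11 fragments), H3K9bhb (5.89-fold, 12) and H3K9cr (4.57-fold, 13) and no H3K9ac peak. CYP2B6, a target of the receptor CAR, had a lone wild type ENL peak of 13 fragments, and CYP19A1, the aromatase gene, a site with 22 wild type and 18 H3K9ac fragments. CYP24A1, which inactivates vitamin D, had wild type ENL and H3K9bhb inside the gene with 18 fragments each. CYP2J2, which epoxidises arachidonic acid, had a 6.23-fold H3K9ac peak at a RefSeq start that lies inside its gene model. SULT1E1, the oestrogen sulfotransferase, had 2 internal sites with wild type ENL and H3K9bhb, of which the one with more fragments held 22 and 16 beside 46 of H3K9ac.

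The other genes of drug metabolism, 114 in 5 lists by role, had gene-end peaks more often than the members. These lists too were chosen with earlier results of these data known. H3K9ac was at 75 of them (65.8%, interval 56.7 to 73.9), against 56.8% of all protein-coding genes. Wild type ENL was at 48 (42.1%, interval 33.4 to 51.3), against 28.8%. H3K9bhb was at 34 (29.8%), against 23.9%, Y78A at 24 (21.1%), against 14.8%, and H3K9cr at 10 (8.77%), against 4.5%. The intervals of H3K9bhb (22.2 to 38.8) and Y78A (14.6 to 29.4) contain the share of all genes. Of 23 sensors and liver regulators, 14 had wild type ENL (60.9%, against 28.8% of all genes), 7 H3K9bhb (30.4%, against 23.9%) and 5 Y78A (21.7%, against 14.8%). AHR stood at 6.62-fold for wild type ENL without Y78A, and its partner ARNT at 6.45-fold with it. NR1I3, the receptor CAR, had wild type ENL at 5.37-fold and no other gene-end peak, and RXRB, a retinoid X receptor, had it at 4.57-fold with H3K9ac. HNF4A stood at 4.56-fold, and NR1I2, the receptor PXR, had H3K9ac alone. Electron donors and their helpers had H3K9ac at 10 of 10 genes, against 56.8% of all genes, and wild type ENL at 5 (50%, against 28.8%). The wild type peaks were led by PGRMC2 at 8.81-fold, CYB5A, encoding cytochrome b5, at 8.35-fold, FDXR at 6.16-fold and FDX1 at 4.65-fold. POR, which encodes the reductase that feeds electrons to microsomal P450 enzymes, had wild type ENL at 3.38-fold with Y78A and H3K9bhb.

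Of 38 other oxidising and hydrolysing enzymes, 22 had H3K9ac (57.9%, against 56.8% of all genes) and 13 wild type ENL (34.2%, against 28.8%). H3K9bhb was at 11 (28.9%, against 23.9%) and Y78A at 5 (13.2%, against 14.8%), so these shares lay near those of all genes. The highest wild type folds of these enzymes were at NQO2 (6.61), ALDH3A2 (6.33), AOX1 (5.96) and AKR1B10 (5.65). Of 24 other conjugating enzymes and genes of cosubstrate supply, 14 had wild type ENL (58.3%, against 28.8% of all genes). H3K9bhb was at 10 (41.7%, against 23.9%) and Y78A at 8 (33.3%, against 14.8%). HNMT, histamine methyltransferase, led with 7.97-fold, then TPMT, which inactivates thiopurines, at 7.10-fold, GCLM, a subunit of the glutathione-synthesising ligase, at 6.95-fold and MGST2 at 6.16-fold. UGDH, which makes the glucuronic acid donor of the UGT enzymes, had a peak in all 5 lists, and PAPSS1, which makes the sulfate donor, had H3K9bhb at 6.60-fold with H3K9ac and no ENL. Drug transporters were closer to the members, with H3K9ac at 9 of 19 (47.4%, against 56.8% of all genes) and wild type ENL at 2 (10.5%, against 28.8%). The 2 were SLC51B at 5.15-fold and ABCC2 at 3.97-fold, both with Y78A.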

How the data were processed

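CUT&Tag of HepG2 cells gave 1 peak list per library for 5 libraries, with groups from the titles. The prefixes of the peak names within the lists differ from these labels, and the titles were followed. Per the submitters' processing notes, the tools included Bowtie2, MACS2, FastQC and deepTools with the build hg38. Versions, call settings, a control and any duplicate or mapping filter are not stated there. The authors deposited narrowPeak lists. In them the deposited fold is a ratio of summit to background, p and q are deposited as −log10, the deposited score equals −log10 q times 10 with decimals dropped in 99.96% or more of lines, and the deposited positions and summit offsets are in base pairs. Folds were used only within a list.

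Peaks on the standard chromosomes and RefSeq GRCh38.p14 genes were used. Rows of the gene table that carry coordinates of other scaffolds were dropped. That table gives no strand, so both gene ends were used, and starts came from the RefSeq promoter table. Summit fragments were recovered as the whole number that gives back the deposited fold, with 1 added to signal and background, and the −log10 p (P above that number, Poisson) within a relative tolerance of 3e-05, which held for 99.98% or more of each list. Shares have 95% Wilson intervals. No test across samples was possible with 1 library per group, and no paired analysis either.

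The members and gene lists were chosen with earlier results of these data known. Named were all members with an ENL, H3K9bhb or H3K9cr gene-end peak, up to 3 H3K9ac-only members per family by fold with values, and up to 4 genes of each list by wild type ENL fold. Other named genes, sites inside genes and members without peaks were chosen after their values were seen. Promoters were printed without the 50 bases after the start. On simulated data the overlap code classed 100% of 1000 planted peaks rightly and differed from bedtools 2.31.1 at 0 genes, and fragment recovery was right for 100% of 2000 peaks. Python 3.11.15, pandas 2.3.3 and SciPy 1.17.1 were used. Alternatives were window size, whole genes, summits, thresholds, list length and ways of counting members. The values of 1 member are not reported here.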

Additional observations from a re-analysis of the deposited data

How the results depend on the processing

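Counts of members moved by over 1.5 times under 5 settings. With peaks anywhere in the gene or within 1 kb, they were 31 for wild type ENL, 15 for Y78A, 55 for H3K9ac, 23 for H3K9bhb and 4 for H3K9cr, 15 for wild type ENL with Y78A, 20 for H3K9bhb with wild type ENL, and, with H3K9ac, 29 for wild type ENL, 15 for Y78A and 22 for H3K9bhb. At a −log10 q of at least 3, H3K9cr fell to 1 member, also with H3K9ac. At 5 or more, wild type ENL was at 8 members, all with H3K9ac, H3K9bhb at 5, all with H3K9ac and with wild type ENL, and H3K9cr at 0. With lists of 3852 peaks each, counts were 4 for wild type ENL, 3 for Y78A, 10 for H3K9ac and 5 for H3K9bhb, 3 for wild type ENL with Y78A, 3 for H3K9bhb with wild type ENL, and, with H3K9ac, 3 for wild type ENL, 2 for Y78A, 3 for H3K9bhb and 1 for H3K9cr. Within 1 kb of a RefSeq start, a setting chosen after seeing the data over 83 members, H3K9cr was at 1. These settings keep fewer or more peaks or places by construction. The other 74 counts stayed within 1.5 times.

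The share of members stayed below that of all protein-coding genes for each list in the 8 settings in which both were counted, the main one included. For H3K9cr this rests on 0 to 4 members. With whole genes wild type ENL stood at 29.0% of members against 36.1% of all genes, and with lists of equal length at 3.74% against 11.9%. Depth limits what can be told at single genes, since the wild type ENL summits at member ends held 12 to 32 fragments and the Y78A summits 11 to 18. No paired analysis was possible because each group has 1 library.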
